A study of Chlorocebus sabaeus with 18 samples.

Results

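The arrays described here ask what an excess of the splicing factor TRA2A does in cells that carry an expanded CGG repeat. They are 6 of the 18 arrays of the study, chosen by their titles: 3 of COS-7 cells transfected with 60 CGG repeats of the FMR1 untranslated region and overexpressing TRA2A, and 3 of COS-7 cells with the same repeats and no change to TRA2A (CGG cells). COS-7 is a kidney cell line of the monkey Chlorocebus sabaeus. RNA was hybridised to Clariom D Human arrays, so every probe was designed for a human transcript, and the deposited values are on a log2 scale, where a difference of 1 is a doubling. The other 12 arrays, also 3 per group, hold TRA2A overexpression without CGG, TRA2A knockdown without CGG, CGG with TRA2A knockdown, and controls. Both groups compared carry the repeat construct, and the labels name no empty vector beside the TRA2A construct in CGG cells, so TRA2A and a second transfection cannot be told apart. GFP appears in the titles of the arrays with TRA2A overexpression and no CGG, and in no other title. No label says that the 3 arrays of a group are separate cultures, so p-values measure the spread between these arrays, which may be technical. CGG array 1 is labelled as rehybridised, as is array 3 of TRA2A knockdown without CGG. The condition labels of the 3 controls read COS-7, COS-6 and COS-5 while their cell line is given as COS-7, a doubt that touches every value set against controls.

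TRA2A belongs to the Tra2 family of serine/arginine-rich proteins, which bind purine-rich sequences in pre-mRNA and promote the use of exons that hold them. Its paralog TRA2B does the same, and each acts on exons of its own family's transcripts. Expanded CGG repeats in FMR1 cause the tremor/ataxia syndrome FXTAS, in which repeat RNA gathers in nuclear foci with RNA-binding proteins, and TRA2A is among the proteins studied as partners of that RNA.

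Array medians lay between 4.14 and 4.17 (log2) in the 6 arrays, and no 2 arrays held identical values. Pairs of the 3 overexpressing arrays correlated at 0.985 to 0.986 across transcript clusters, the units that stand for genes on this platform, and pairs of the 3 CGG arrays at 0.980 to 0.982. The number of arrays limits the precision. Fibroblast-like markers were measured in both groups, with VIM, the intermediate filament vimentin, at mean log2 values of 16.12 in overexpressing CGG cells and 15.86 in CGG cells, and SPARC, a matrix protein, at 15.94 and 16.35, while COL1A2, a collagen chain, averaged 6.21 and 5.79. Of 9 fibroblast-like markers tested 1 was higher and 2 were lower at an unadjusted p under 0.05, and 0 were called in limma. Of 6 leukocyte, 7 endothelial, 6 proximal tubule and 6 neuronal markers tested none passed the test described next. At an unadjusted p under 0.05 there were 0, 2 higher, 2 higher and 2 lower. Of 10 epithelial markers 0 were called, with 0 higher and 1 lower at that threshold. Their median level was 7.97 in overexpressing CGG cells, against 8.44 for the fibroblast-like markers. In CGG cells the order was the reverse, at 8.60 for the epithelial and 8.32 for the fibroblast-like markers. Of all 16594 genes with a single, non-systematic symbol 9.71% were higher and 2.43% lower at that threshold. Overexpressing array 3 stood apart from arrays 1 and 2 in small noncoding RNAs. The mean over 110 distinct U1 transcript clusters was 6.96, 6.93 and 7.26 in overexpressing arrays 1 to 3, against 7.49, 7.47 and 7.36 in the CGG arrays.

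TRA2A itself (TC0700010472.hg.1) followed the labels. Its log2 values were 17.16, 17.11 and 17.22 in overexpressing CGG cells, against 14.49, 14.51 and 14.71 in CGG cells. The groups did not overlap. The rise was 2.59 ± 0.19 (log2, SE, n = 3 and 3), a 6.03-fold difference, with an adjusted p of 2.78e-06. That p comes from limma's moderated test, two-sided, in 1 model of all 6 groups, with Benjamini-Hochberg adjustment over 67854 transcript clusters, and an adjusted p under 0.05 is a call throughout. Without CGG the rise was 3.91, from arrays at 18.70, 18.39 and 18.50 with overexpression and 14.65, 14.68 and 14.54 in controls. The change in CGG cells was smaller by 1.31 ± 0.27 (interaction term, adjusted p = 0.0472). TRA2B, the paralog, had 16.69, 16.73 and 16.57 in overexpressing CGG cells and 16.43, 16.30 and 16.56 in CGG cells. It differed by 0.23 ± 0.15 (95% interval -0.08 to 0.55, adjusted p = 0.685). FMR1, whose untranslated region is part of the construct, had 12.70, 12.93 and 12.68 with overexpression and 12.37, 12.17 and 12.39 in CGG cells. The 3 arrays of overexpressing cells were above the 3 of CGG cells, and the difference of 0.46 ± 0.17 did not pass (adjusted p = 0.415).

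The array reads TRA2A through 38 exon-level features, 24 exon regions and 14 exon-exon junctions, and they did not rise together. In a fit of their own values, 15 rose with overexpression in CGG cells, by 1.77 to 7.92 on the log2 scale, 9 of them regions and 6 junctions. None fell, and 23 did not pass, with changes of -0.10 to 1.45. Of these 23, 12 had a mean above 7.46, the exon-level filter used below, and the rest had lower means. Whether low signal hid a rise in the rest was not tested. The calls were made over all 483868 features of the exon table, of which 0.0238% were called higher. The region with the largest rise, PSR0700174547.hg.1, read 17.93, 17.90 and 18.12 in overexpressing CGG cells and 9.97, 10.31 and 9.90 in CGG cells. Among those that did not pass, PSR0700174532.hg.1 averaged 10.14 with overexpression and 10.15 in CGG cells. PSR0700174530.hg.1, among the brighter regions of the gene, averaged 15.70 and 15.30 in the same groups. Each of the 15 features that rose did so by less than in cells without CGG.

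**Figure D1:**
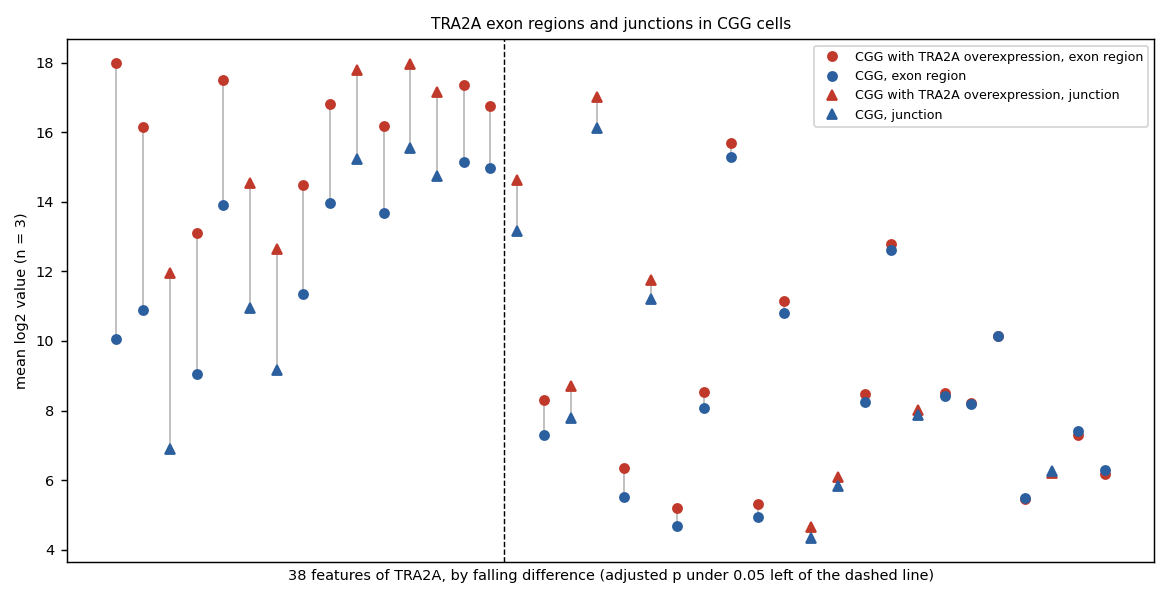
Mean log2 value of each of the 38 TRA2A features (n = 3 arrays) in CGG cells with TRA2A overexpression (red) and in CGG cells (blue), circles for exon regions and triangles for junctions, in order of falling difference. The 15 features left of the dashed line rose by 1.77 to 7.92, and the 23 on the right changed by -0.10 to 1.45.

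Beyond TRA2A, few genes passed and most of those were lower. In all 26 of 67854 transcript clusters (0.0383%) were called, 6 higher and 20 lower in overexpressing CGG cells, which is 0.00884% and 0.0295% of those tested. At an unadjusted p under 0.05 there were 5.46% higher and 3.54% lower. Among the 26, 19 were genes with a single, non-systematic symbol, 5 higher and 14 lower (0.0301% and 0.0844% of 16594 such genes, 0.114% in either direction). The arrays of the groups did not overlap for any of the 26, and among all tested 9.24% were higher and 5.12% lower without overlap. The calls come from the same arrays, so this separation nearly follows from them and is not further evidence. The lipid, Wnt, matrix and stress-cytokine genes among them are described in that order, each with what it is known to do.

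FABP3 (TC0100013561.hg.1), a cytosolic carrier of fatty acids, had the largest fall. It read 8.60, 8.02 and 8.38 in overexpressing CGG cells, against 10.84, 10.95 and 11.30 in CGG cells. It changed by -2.70 ± 0.25 (6.48-fold lower), with an adjusted p of 7.65e-05, and it kept its call under each of 13 alternative settings. ELOVL6, the elongase of long-chain saturated fatty acids, read 9.97, 9.65 and 10.01 with overexpression and 11.11, 11.03 and 11.34 in CGG cells, a change of -1.28 ± 0.19 (adjusted p = 0.0115) that was no longer called without CGG array 3, overexpressing array 1 or overexpressing array 2. THRSP, a nuclear factor tied to lipogenesis in liver, changed by -1.50 ± 0.24, ACSF2, an acyl-CoA synthetase, by -1.18 ± 0.20, and ACAT2, the cytosolic thiolase at the start of sterol synthesis, by -1.01 ± 0.17. These last 3 each lost the call without at least 4 single arrays, among them CGG arrays 2 and 3 and overexpressing arrays 1 and 2. THRSP and ACSF2 also lost it with rehybridisation as a covariate. A list of 33 fatty acid genes, drawn up after these values were seen, held 0 members called higher and 5 called lower. Among all named genes 0.0301% and 0.0844% were called higher and lower. At an unadjusted p under 0.05, 2 members were higher and 9 lower, against 9.71% and 2.43% of all named genes. The cluster TC1100011050.hg.1 carries the symbols FADS1 and MIR1908 and is not in that count. It was called lower (-1.26 ± 0.20, adjusted p = 0.0222), but not without any 1 CGG array or overexpressing array 2. The list holds the called genes that prompted it, so its count is a description only. ACSS2, which makes acetyl-CoA from acetate, was lower without passing (-1.24 ± 0.23, adjusted p = 0.0685), while SCD, the stearoyl-CoA desaturase, and FASN, the fatty acid synthase, changed by -0.10 and -0.34.

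The cholesterol list gave the same direction in most of its members with few single calls. Of 21 tested genes of cholesterol synthesis and uptake 19 were lower and 2 higher, the list median was -0.44 against 0.11 for all named genes, and 13 were lower at an unadjusted p under 0.05 with 0 higher, against 2.43% and 9.71% of all 16594 named genes. ACAT2 was the 1 member called. HMGCS1, the synthase that feeds the mevalonate pathway, read 12.79, 12.72 and 13.06 in overexpressing CGG cells and 13.63, 13.91 and 14.05 in CGG cells. Its change was -1.01 ± 0.22 (adjusted p = 0.138). MVD, the decarboxylase that ends the mevalonate steps, changed by -0.95 ± 0.20 (adjusted p = 0.119), and SREBF2, the transcription factor of sterol genes, by -0.81 ± 0.21 (adjusted p = 0.225). INSIG1, the sterol-regulated brake on that factor, changed by -0.64 ± 0.20, DHCR7, a late reductase of the pathway, by 0.12, and SQLE, the squalene epoxidase, by -0.18. Under the 13 alternatives 11 to 14 members were lower at an unadjusted p under 0.05 and 0 higher.

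A pair of secreted Wnt-pathway proteins rose. WIF1 (TC1200011108.hg.1), a secreted inhibitor that binds Wnt ligands, read 8.67, 8.76 and 8.58 in overexpressing CGG cells, against 7.03, 6.30 and 7.08 in CGG cells. The rise was 1.87 ± 0.24 (3.65-fold, adjusted p = 0.00312), and CGG array 2 was the lowest of the 6. WNT4 (TC0100013246.hg.1), a Wnt ligand of kidney tubule formation, read 12.96, 12.90 and 13.02 with overexpression and 12.09, 11.79 and 11.54 in CGG cells. Its rise of 1.15 ± 0.20 (adjusted p = 0.0464) lost the call without any 1 of the 6 arrays. The other 14 of 16 tested Wnt-pathway genes did not pass, with AXIN2, a feedback gene of the pathway, at 0.14 and LEF1, a transcription factor of the pathway, at -0.38, and the list median was 0.06. The remaining rises were ZNF234, a zinc-finger protein, at 1.10 ± 0.19, and TAFA4, a secreted chemokine-like protein, at 0.95 ± 0.17. Both passed narrowly (adjusted p = 0.0479 and 0.0495), and of the 6 arrays only overexpressing array 3 could be left out without losing either call. Rehybridisation as a covariate ended both. The transcript cluster TC0800011703.hg.1, which carries no gene symbol in the annotation used, read 6.82, 6.95 and 7.16 with overexpression and 3.82, 4.52 and 3.90 in CGG cells, a rise of 2.90 ± 0.28 (adjusted p = 7.65e-05). It rose by 4.50 without CGG, and like TRA2A and FABP3 it kept its call under all 13 alternatives.

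Genes of adhesion and matrix cross-linking were among the falls. TGM2, the tissue transglutaminase that cross-links matrix proteins, read 10.49, 10.40 and 10.77 in overexpressing CGG cells and 12.20, 11.73 and 12.01 in CGG cells (-1.43 ± 0.20, adjusted p = 0.00679). The call was lost without CGG array 3, overexpressing array 1 or overexpressing array 2. ITGB3, the integrin beta 3 chain, read 7.84, 7.37 and 8.35 with overexpression and 9.27, 9.14 and 9.16 in CGG cells. Its change of -1.34 ± 0.23 just passed (adjusted p = 0.0479), overexpressing array 3 was the nearest to the CGG arrays, and the call was lost without any 1 of the other 5 arrays and with rehybridisation as a covariate. These were the only 2 called of 33 tested matrix, adhesion and TGF-beta genes, where 0.0844% of all named genes were called lower. At an unadjusted p under 0.05, 5 of the 33 were lower and 3 higher, against 2.43% and 9.71% of all named genes. The number higher lay near that share. BMP4, a bone morphogenetic protein, was higher without passing (0.85 ± 0.23, adjusted p = 0.256), and FN1, fibronectin, changed by -0.10.

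The other falls were enzymes, a membrane protein and stress-related genes. GDF15, a secreted stress cytokine, read 8.33, 8.57 and 9 in overexpressing CGG cells, against 10.05, 10.49 and 10.74 in CGG cells (-1.79 ± 0.25, adjusted p = 0.0081). AKR1B15, an aldo-keto reductase, read 10.77, 10.76 and 11.08 with overexpression and 12.19, 12.20 and 12.30 in CGG cells (-1.36 ± 0.17, adjusted p = 0.00312). Its near copy AKR1B10 changed by -1.10 ± 0.26 without passing, and probes of the pair may share targets. SOD2, the mitochondrial superoxide dismutase, changed by -1.19 ± 0.17, SAT1, which acetylates polyamines, by -1.23 ± 0.19, and MAOA, the monoamine oxidase A, by -1.31 ± 0.21. TMEM154, a transmembrane protein, changed by -1.60 ± 0.21 and KLF2, an early-response transcription factor, by -1.20 ± 0.20. Of these 7 genes AKR1B15 kept its call whichever single array was left out, and TMEM154 lost it without overexpressing array 2. GDF15 lost it without CGG array 3 or overexpressing array 1 or 2, SOD2 without CGG array 2 or 3 or overexpressing array 2, and SAT1 and MAOA without CGG array 1 or 3 or overexpressing array 1 or 2. KLF2 lost it without any single array but overexpressing array 3. With rehybridisation as a covariate MAOA and KLF2 were not called.

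**Figure D2:**
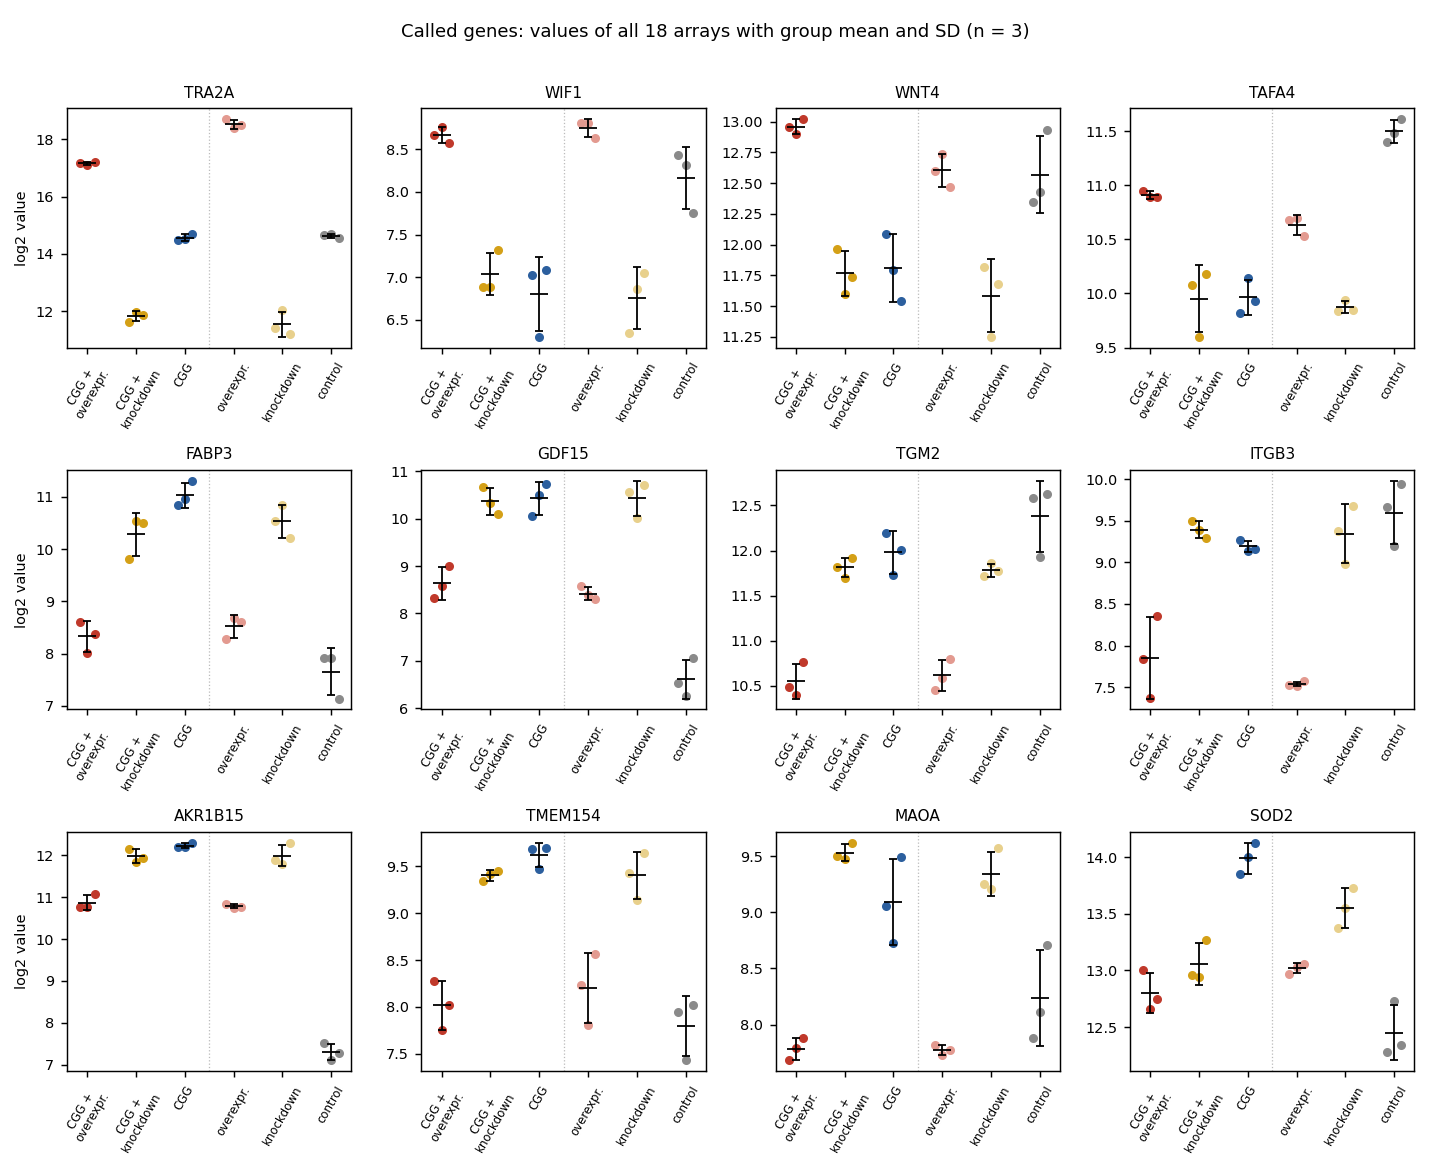
Log2 values of 12 called genes in all 18 arrays, with a bar for the mean and whiskers for the SD of each group of 3, CGG backgrounds left of the dotted line and cells without CGG on the right. In the red overexpressing CGG arrays FABP3 sits between 8.02 and 8.60, beside 8.28 to 8.69 in overexpressing cells without CGG, and the blue CGG arrays lie between 10.84 and 11.30.

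Among the splicing proteins themselves TRA2A alone was called, and most members of their lists were higher. Among 21 SR-family and Tra2 genes tested, TRA2A alone passed, 19 were higher and 6, TRA2A included, were higher at an unadjusted p under 0.05 with 0 lower. RNPS1, of the exon junction complex, read 14.04, 14.33 and 14.11 in overexpressing CGG cells and 13.66, 13.08 and 13.49 in CGG cells (0.75 ± 0.20, adjusted p = 0.248). SRSF6 changed by 0.51 ± 0.16 and SRSF4 by 0.34 ± 0.14, both SR proteins that promote exon use. Of 31 hnRNPs and other splicing regulators 0 passed in limma, with 9 higher and 0 lower at an unadjusted p under 0.05, and PTBP2, the neuronal polypyrimidine-tract protein, was in front at 0.997 ± 0.25 (adjusted p = 0.225). Of 34 core spliceosome proteins 0 passed, with 5 higher and 0 lower at an unadjusted p under 0.05. The medians of the SR, hnRNP and core spliceosome lists were 0.29, 0.19 and 0.26, against 0.11 for all named genes. Of 15 genes with exons known to respond to Tra2 proteins only TRA2A was called, and 3 including TRA2A were higher at an unadjusted p under 0.05. These shares stand beside 9.71% of all named genes that were higher at that threshold. Across the alternatives the number higher ranged over 4 to 10 for the SR list, 5 to 11 for the hnRNPs, 0 to 10 for the core spliceosome and 1 to 4 for the genes with Tra2-responsive exons. The core spliceosome count was 0 with quantile normalization or without overexpressing array 2, and 2 and 3 without CGG array 2 and CGG array 3. Without overexpressing array 3 it was 5 higher and 1 lower for the hnRNPs and 1 higher for the genes with Tra2-responsive exons, and without CGG array 2 or overexpressing array 3 the SR count was 4. Of 23 tested proteins linked to CGG repeat RNA 0 passed in limma, with 4 higher and 0 lower at an unadjusted p under 0.05, FMR1 among the 4. Without single arrays the number higher was 1 (CGG array 2) to 4, with 2 without any 1 overexpressing array.

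Several further lists leaned one way at an unadjusted p under 0.05, where 2.43% of all named genes were lower and 9.71% higher, with at most 1 single call. Of 27 immediate early and ERK feedback genes 9 were lower and 0 higher, with KLF2 the 1 called. DUSP5, a nuclear phosphatase of ERK, read 9.75, 10 and 9.88 in overexpressing CGG cells and 10.97, 10.74 and 10.90 in CGG cells (-0.99 ± 0.23, adjusted p = 0.168). DUSP6, its cytosolic counterpart, changed by -0.94 ± 0.22 and SPRY4, a feedback inhibitor of receptor signalling, by -0.75 ± 0.22. Of 25 NRF2 antioxidant and NADPH genes 8 were lower and 0 higher, with 0 called in limma. They included ME1, the malic enzyme, at -0.64 ± 0.15, while HMOX1, heme oxygenase, changed by -0.43 ± 0.28. Of 28 autophagy and lysosome genes 4 were lower and 0 higher, with 0 called, among them GPNMB, a lysosomal glycoprotein (-1.05 ± 0.22, adjusted p = 0.119), and MITF, a transcription factor of lysosomal genes (-1.04 ± 0.24).

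At an unadjusted p under 0.05, 5 of 24 NF-kB targets and cytokines were lower, with SOD2 called, and 2 were higher. Among all named genes 2.43% were lower and 9.71% higher. IL6, an inflammatory cytokine, changed by -1.07 ± 0.25 and LCN2, the iron-siderophore carrier lipocalin 2, by 1.39 ± 0.28, neither past the test (adjusted p = 0.179 and 0.119). Of 22 p53 targets GDF15 was called, and 4 were lower and 0 higher at an unadjusted p under 0.05. CDKN1A, the cell-cycle inhibitor p21, changed by -0.97 ± 0.21 (adjusted p = 0.147), while the list median was 0.11.

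In the upward direction, 11 of 30 mitosis genes were higher and 0 lower at an unadjusted p under 0.05, against 9.71% and 2.43% of all named genes, with 0 called in limma and a median of 0.35. BUB1B, a spindle checkpoint kinase, read 13.74, 13.93 and 13.79 in overexpressing CGG cells and 13.11, 13.14 and 12.85 in CGG cells (0.79 ± 0.17, adjusted p = 0.135). CDC20, the activator of the anaphase-promoting complex, changed by 0.82 ± 0.21. All 11 tested metallothionein and zinc-response genes were higher, 7 of them at an unadjusted p under 0.05 and 0 called, with MT1X and MT1F, both metal-binding metallothioneins, each at 0.78. Of 29 genes of the unfolded protein and integrated stress response 3 were higher and 0 lower, of 29 interferon genes 2 and 2, and of 26 respiratory chain subunits 0 and 0, with none called in limma in these 3 lists, and the unfolded protein count lay near the share of all named genes. Under the 13 alternatives the unadjusted counts ranged over 7 to 10 lower for the early genes, 5 to 9 lower for the NRF2 list and 5 to 14 higher for the mitosis list. They ranged over 3 to 8 higher for the metallothioneins. The mitosis count was 5 without overexpressing array 3, the NRF2 count 5 without CGG array 3 or overexpressing array 2, and the metallothionein count 3 and 4 without overexpressing arrays 1 and 2. Leaving out CGG array 1, CGG array 2 or overexpressing array 2 left 7 mitosis genes.

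**Figure D3:**
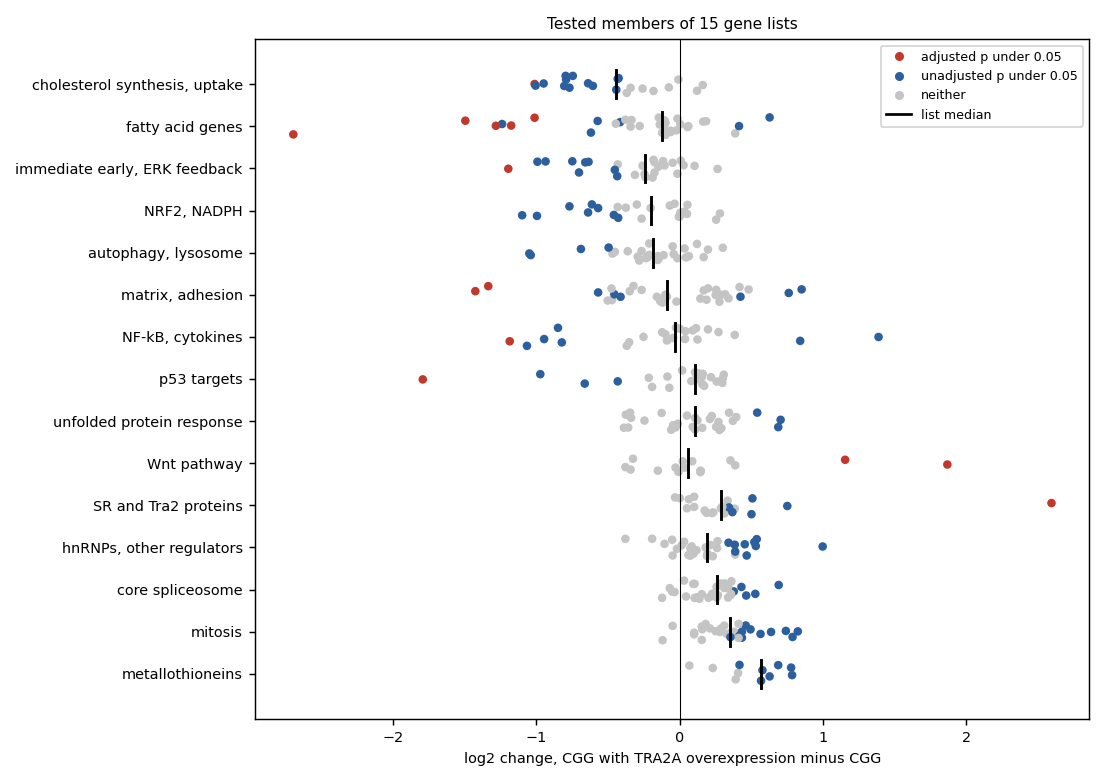
Log2 change of each tested member of 15 gene lists, CGG with TRA2A overexpression minus CGG, with the list median as a black bar, calls in red and members at an unadjusted p under 0.05 in blue. The cholesterol members center on -0.44 and the metallothionein members on 0.57, and the red points are single genes of mostly grey and blue lists.

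The 6 arrays of TRA2A overexpression and TRA2A knockdown without CGG share no array with this comparison and measure the same genes in cells that differ in TRA2A. Both comparisons have 1 rehybridised array on the side with less TRA2A and none on the other. Of the 26 transcript clusters called in CGG cells, 25 had the same direction there, 16 were called, and all 16 of those went the same way. Each comparison takes a gene's spread from the same model of all 18 arrays. A small spread thus favours a call in both, and the counts called are not independent of the first calls. In that comparison 0.405% of all transcript clusters were called (0.28% higher and 0.125% lower). TRA2A is among these, and of the other 18 named genes 13 were called, against 1.24% of all named genes. Without the rehybridised knockdown array 3, 24 of the 26 had the same direction and 12 were called, all 12 the same way, where 0.236% of all were called, and TMEM154, THRSP, ACAT2 and WNT4 were no longer called. Without both rehybridised arrays the numbers were 24 and 13. GDF15 changed by -2.01 ± 0.25 between overexpression and knockdown, FABP3 by -2.01 ± 0.25, WIF1 by 1.997 ± 0.24, ITGB3 by -1.80 ± 0.23 and MAOA by -1.57 ± 0.21. ELOVL6, SOD2, SAT1, ZNF234 and TAFA4 did not pass there, with SOD2 at -0.53 ± 0.17 and TAFA4 at 0.76 ± 0.17. Neither group is an untreated one, and overexpression, knockdown and the GFP named in titles of the overexpressing arrays cannot be told apart in these differences.

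Some of the gene lists leaned the same way in those 6 arrays and some did not. Of the 27 early and ERK feedback genes 6 were called lower with overexpression than with knockdown and 0 higher, against 0.41% of named genes called lower and 0.832% called higher. They were DUSP5 (-1.48 ± 0.23), IER3 (-1.34 ± 0.16), EGR1 (-1.28 ± 0.23), KLF2 (-1.24 ± 0.20), KLF6 (-0.97) and DUSP1 (-0.92). EGR1, a transcription factor induced by growth signals, was the exception in CGG cells, at 0.26 ± 0.23. Of the 33 matrix genes 5 were called lower and 1 higher, among them ITGA5, an integrin alpha chain (-1.28 ± 0.19), and BMP4 (1.44 ± 0.23). Of the 24 NF-kB genes 3 were called lower and 1 higher, with IL6 at -2.02 ± 0.25, CXCL8, a neutrophil chemokine, at -1.53 ± 0.31, and LCN2 at 1.86 ± 0.28. Of the 21 cholesterol genes 3 were called lower, INSIG1 (-1.56 ± 0.20), IDI1, an isomerase of the pathway (-1.08 ± 0.18), and ACAT2 (-0.86 ± 0.17). Of the 30 mitosis genes CDC20 was called higher (1.02 ± 0.21), and 14 were higher and 0 lower at an unadjusted p under 0.05, against 7.6% and 4.5% of all named genes. The metallothioneins had 1 higher and 0 lower at that threshold and a median of 0.02. Of the 31 hnRNPs 2 were higher and 2 lower, the p53 list had a median of -0.16, and PTBP2 had the opposite sign there, at -0.57 ± 0.25.

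Across 16593 named genes without TRA2A, the changes in CGG cells and those between overexpression and knockdown correlated at 0.35 (Pearson) and 0.29 (Spearman), and at 0.34 and 0.30 without both rehybridised arrays. With controls in place of knockdown, the other 6-array comparison without shared arrays, the values were 0.074 and 0.064. These are descriptions across genes, which are not independent replicates. Of the 26 transcript clusters 13 had the same direction against controls, 7 were called there and 4 of those went the same way, where 1.25% of all tested were called. TGM2 and ITGB3 were 2 of the 4, at -1.76 and -2.06, beside TRA2A and TC0800011703.hg.1. GDF15, AKR1B15 and TAFA4 were called the other way, at 1.81, 3.48 and -0.86. Against controls the medians of the cholesterol, NRF2, autophagy and early gene lists were 0.64, 0.87, 0.67 and 0.07. In CGG cells these medians had the other sign, at -0.44, -0.20, -0.185 and -0.24. The medians of the mitosis, metallothionein and matrix lists kept their sign against controls, at 0.10, 0.26 and -0.28.

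TRA2A knockdown in CGG cells is set against the same 3 CGG arrays, so its values stand beside those of overexpression without being independent of them. Knockdown changed TRA2A by -2.75 ± 0.19, SOD2 by -0.93 ± 0.17 (adjusted p = 0.0322), FABP3 by -0.75 ± 0.25, GDF15 by -0.06 ± 0.25 and WIF1 by 0.23 ± 0.24. SOD2 was thus called lower with overexpression and with knockdown, where 0.147% of all transcript clusters were called with knockdown, while FABP3, GDF15 and WIF1 were not called with knockdown.

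**Figure D4:**
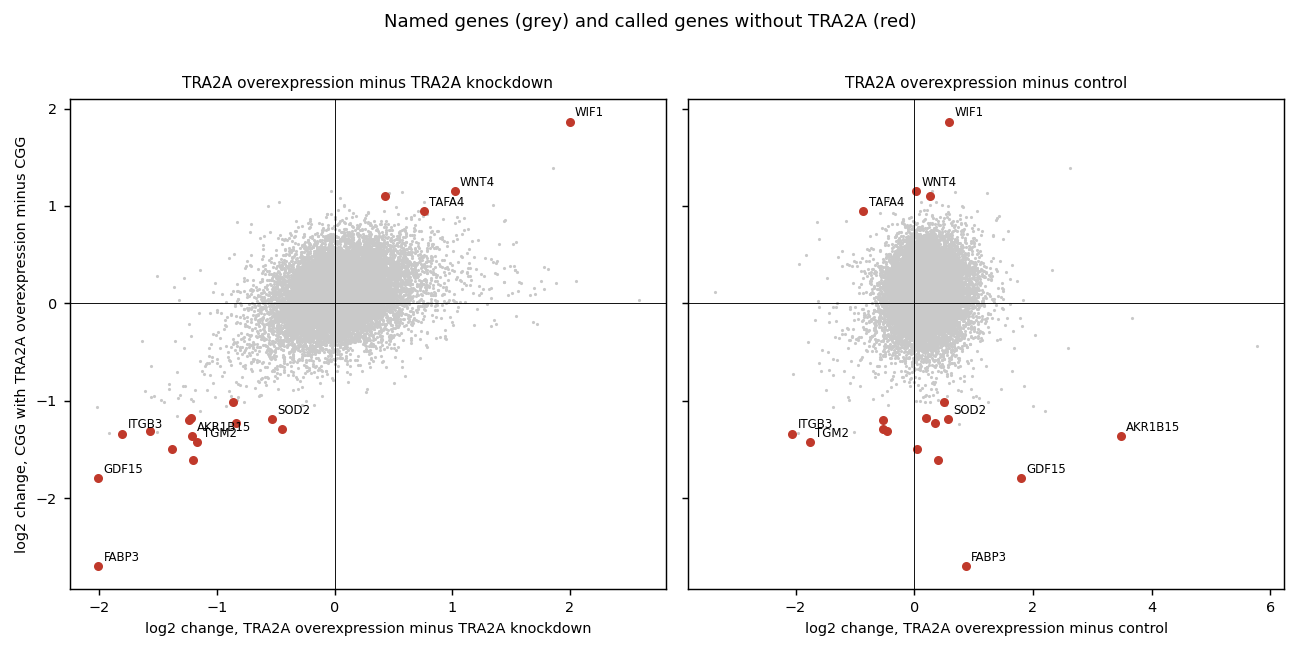
Log2 change in CGG cells (vertical) against the change between TRA2A overexpression and knockdown (left) or between TRA2A overexpression and controls (right), both without CGG, for 16593 named genes in grey and the 18 called genes without TRA2A in red. In the left panel all 18 red points share their sign on both axes, and in the right panel GDF15 and AKR1B15 lie at 1.81 and 3.48 while both fell in CGG cells.

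The interaction term tested whether the overexpression change in CGG cells differed from that without CGG. It called 167 transcript clusters, 33 higher and 134 lower (0.0486% and 0.197%, or 0.246% in either direction), and 12 of the 26. HMOX1 had the largest term among the 5 smallest p-values, at -6.22, with 10.97, 11.07 and 11.44 in overexpressing CGG cells and 11.40, 11.49 and 11.89 in CGG cells. It read 11.13, 11.55 and 11.95 with overexpression without CGG and 5.37, 6.03 and 5.88 in controls. Thus 3 of the 4 groups lay close together and the controls apart. The controls also lay apart for SQSTM1, the autophagy receptor p62 (-3.82), for CSF1, the macrophage growth factor (-2.70), and, on the high side, for NPTX1, neuronal pentraxin 1 (3.47). NPTX1 averaged 9.90 in overexpressing CGG cells, 9.79 in CGG cells, 10 with overexpression alone and 13.36 in controls. Controls carry no transfection in the labels, so the term cannot be told apart from a difference between transfected and untransfected cells.

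Exon-level tests took each feature's log2 value less the gene's value on that array, which asks whether one stretch of a transcript departs from the rest. Of 230888 features 13 were called, 6 higher and 7 lower (0.0026% and 0.00303%, 0.00563% in all), and 6 of the 13 belong to TRA2A, with 2 of them higher and 4 lower relative to the gene. At an unadjusted p under 0.05 there were 2.95% higher and 5.88% lower. The largest outside TRA2A was a junction of MVD, the mevalonate decarboxylase (JUC1600066821.hg.1). It read 13.69, 13.57 and 14.08 in overexpressing CGG cells and 9.48, 10.37 and 9.81 in CGG cells, while the gene-level value of MVD was 0.95 lower. Relative to the gene the junction rose by 4.84 ± 0.39 (adjusted p = 8.42e-05). It was also higher with overexpression alone, at 15.21, 15.24 and 15.32, against 10.46, 10.13 and 9.49 with knockdown and 10.90, 9.63 and 9.69 in controls, so the junction was high in both groups with overexpressed TRA2A and low in the other 4.

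TREM1, an innate immune receptor, had an exon region (PSR0600180877.hg.1) at 7.93, 6.78 and 7.45 in overexpressing CGG cells and 9.96, 9.69 and 9.27 in CGG cells. The gene-level value of TREM1 was low, at 5.43, 5.76 and 5.35 with overexpression and 5.67, 5.44 and 5.52 in CGG cells. Only 4 features of the gene were tested. Relative to the gene the region changed by -2.22 ± 0.30 (adjusted p = 0.0276), and by -2.39 between overexpression and knockdown without CGG (adjusted p = 0.00418). A region of PLAT, the tissue plasminogen activator (PSR0800169890.hg.1), read 9.60, 9.09 and 9.22 with overexpression and 11.20, 10.94 and 11.12 in CGG cells, with a gene-level difference of 0.15. It changed by -1.93 ± 0.21 relative to the gene (adjusted p = 0.00151), and by -0.44 in the overexpression and knockdown arrays, where it did not pass. A junction of MRTO4, a ribosome assembly factor, rose by 1.77 ± 0.24, a region of GLYCAM1, a mucin-like protein, by 2.71 ± 0.38, and a region of FBN1, fibrillin 1, by 2.22 ± 0.29, all relative to their genes. A region of LMBR1, a membrane protein, changed by -1.35 ± 0.19. The MRTO4 change also differed from that without CGG (interaction 2.12, adjusted p = 0.0433), where 0.0346% of all features were called. The MVD and PLAT calls held whichever of the 6 arrays was left out. FBN1 lost its call without CGG array 2 or 3 or overexpressing array 1 or 2, with adjusted p of 0.066 to 0.179. TREM1 and MRTO4 kept theirs only without overexpressing array 1, GLYCAM1 only without CGG array 2 and LMBR1 only without CGG array 1, of the 6 single arrays. Of these 7 features outside TRA2A the MVD junction and the TREM1 region were called in the overexpression and knockdown arrays too, where 0.023% of all features were called. The spread of each feature is again shared by both comparisons. MVD, PLAT and TREM1 were also called in their own values, without reference to the gene, as were MRTO4 and GLYCAM1, while FBN1 (0.91) and LMBR1 (-0.61) were not.

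**Figure D5:**
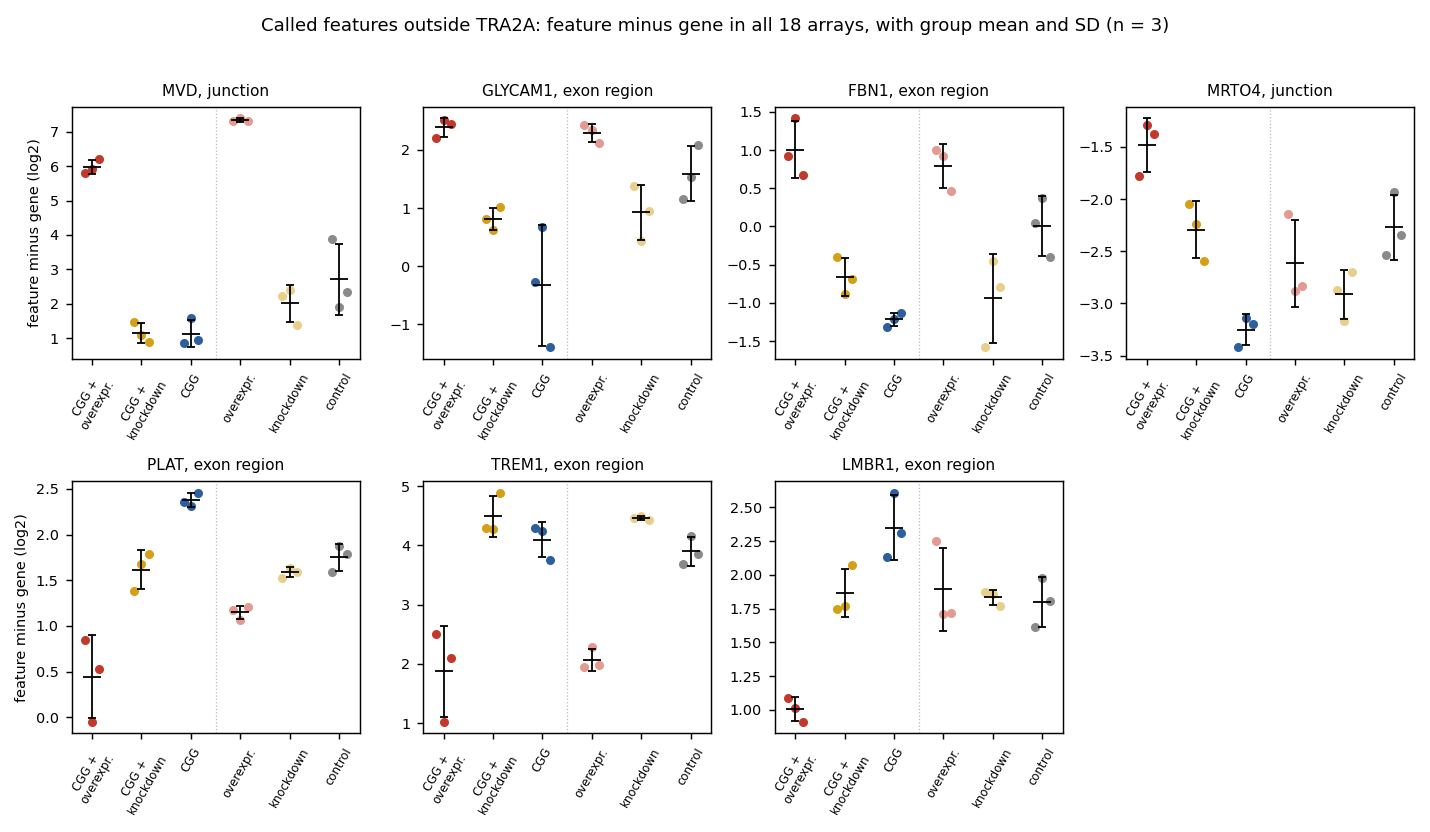
Feature value minus gene value (log2) for the 7 called features outside TRA2A in all 18 arrays, with the mean and SD of each group of 3. The MVD junction averages 5.97 in overexpressing CGG cells and 7.34 in overexpressing cells without CGG, against 1.13 in CGG cells, and the TREM1 region averages 1.87 and 2.07 against 4.10.

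The features' own values, without subtraction of the gene, gave 994 calls in 445 genes, 236 higher and 758 lower (0.102% and 0.328%, 0.431% in all). This count by gene was chosen after the values were seen, and features of a gene read the same transcripts, so they are not independent. FBN1, a microfibril protein of the matrix, had 56 of its 116 tested features called, all lower, at -1.24 to -2.35, with a gene-level change of -1.32 ± 0.25 that did not pass (adjusted p = 0.0995). The FBN1 region described above differed by 0.91 in its own values, the other way from these 56. EPAS1, the hypoxia-inducible factor 2-alpha, had 18 of 29 lower, DOCK10, an exchange factor for small GTPases, 16 of 102, ACSS2 16 of 34, GPNMB 14 of 24, HKDC1, a hexokinase, 13 of 36 and HMGCS1 12 of 25. FABP3 had 9 of 9 tested features lower, AKR1B15 11 of 12, ITGB3 20 of 25, MAOA 16 of 25 and TGM2 14 of 20. WIF1 had 6 of 8 higher. Among genes given above with small gene-level changes, DHCR7 had 4 of 23 lower, FASN 4 of 45 and SQLE 1 of 25, with 0 higher in each. No gene with 10 or more called features and a single symbol, other than TRA2A, had any of them higher.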

How the data were processed

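Total RNA of COS-7 cells was labelled and hybridised to Clariom D Human arrays. The authors deposited log2 values per transcript cluster and per exon region or junction, per the file headers made by SST-RMA (a signal transformation and robust multi-array averaging over all arrays); the submitters' processing notes name RMA and the Transcriptome Analysis Console. Raw intensities were not used here. Human probes can read monkey transcripts weakly, and their effect on these values was not tested.

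Group means of all 18 arrays were fitted in 1 model with limma 3.58.1 (lmFit, eBayes; R 4.3.3; data.table version 1.17.8), without covariates. Transcript clusters with a mean above the median of means (4.14) were tested, 67854 of 135750: 25413 with 1 symbol in the platform annotation, 874 with several, 41567 with none. Exon-level features needed a mean above 7.46, a tested gene and at least 3 features. Both fits were tested on simulated data with 100 changes of 1 and 100 of 2 on the log2 scale. The gene-level fit recovered 48 and 95 of them with 8 false calls, and the exon-level fit 10 and 61 with 2 false calls. Most simulated exon-level changes of 1 were thus missed, and few calls do not mean few changes. A gene with several clusters was read from the brightest.

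The members, the 35 gene lists and the tests were chosen with earlier results of these data known. Genes named were TRA2A, TRA2B, FMR1, called genes with 1 non-systematic symbol and no overlap of arrays (up to 15 per direction), up to 4 called or 2 smallest-p members per list, 5 interaction genes and up to 10 features per direction. Other list members, single TRA2A features, the fatty acid list, the FADS1 cluster and the small RNA families were chosen after values were seen. So were the comparison of overexpression with knockdown, with and without rehybridised arrays, the list medians against controls and the counts of features by gene. The alternative settings left the filter out or raised it to the 75th percentile, or used quantile normalization, another variance (6 arrays, or trended and robust), a replicate block, rehybridisation as a covariate, a 2-fold rule, or all arrays but 1.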

Additional observations from a re-analysis of the deposited data

Results flagged for a closer look

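These results stood out because the overexpression change in CGG cells minus that without CGG passed limma's interaction test at an adjusted p under 0.05, on the log2 scale. Among called genes it was -1.31 for TRA2A, 1.81 for TAFA4, -3.56 for FABP3, -3.6 for GDF15, -2.003 for TMEM154, -4.84 for AKR1B15, -1.58 for SAT1, -1.76 for SOD2, -1.37 for ACSF2 and -1.52 for ACAT2. It was -1.46 for TC1500008010.hg.1, a cluster without a symbol, and -2.003 for the U1 cluster TC0100015582.hg.1. Among genes with no call within CGG cells it was -3.82 for SQSTM1, -6.22 for HMOX1, 3.47 for NPTX1, -2.70 for CSF1, -3.30 for AKR1B10, -3.05 for GPNMB, 2.27 for ANKRD1, a muscle ankyrin repeat protein, and -1.95 for CLDN4, a tight-junction claudin. At the exon level it was 2.12 for the MRTO4 junction relative to its gene. The controls enter each of these terms, and the labels give them no transfection, so CGG and transfection cannot be told apart here.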

How the results depend on the processing

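All 26 called transcript clusters kept their direction in every alternative that tested them, and the number of calls ranged widely. It was 16 without the filter on low values, 3 with the variance of the 6 arrays alone, 66 with a trended and robust variance, 15 with rehybridisation as a covariate and 304 where 2-fold differences at an unadjusted p under 0.05 were counted (68 higher, 236 lower). Quantile normalization gave 29 and the replicate block 20. Leaving out 1 array gave 5 to 166 calls. The lowest was without overexpressing array 2, and 8 passed without overexpressing array 1 or CGG array 3 and 14 without CGG array 1 or 2. Without overexpressing array 3 there were 166, 157 of them lower, of which 119 carry small RNA names and 21 are named genes; its part was not tested further. At the exon level 13 calls became 28 without the filter, 2 with the 6-array variance, 209 with rehybridisation as a covariate, 994 in the features' own values, 9 with the replicate block and 8 to 44 without 1 array (44 without the rehybridised CGG array 1). Interaction calls numbered 109 without the filter, 326 at the 75th percentile, 53 with the variance of 12 arrays, 297 with a trended and robust variance, 165 with the replicate block and 48 to 277 without 1 array (48 without overexpressing array 2 of the cells without CGG, 52 without control array 1, and 277 without overexpressing array 3 of the CGG cells). Called list genes numbered 9, and 5, 1 and 18 without the filter, with the 6-array variance and with a trended and robust variance, 7 with the replicate block and 2 to 7 without 1 array. Without 1 array NPTX1 ranged over -0.037 (without CGG array 2) to 0.193, HIST1H1C over -0.048 (without CGG array 3) to 0.272 and CD3E over -0.13 (without overexpressing array 2) to 0.372, none of them called. Same-numbered arrays correlated at -0.03, 0.05 and 0.08 in their deviations, and differently numbered ones at -0.096 to 0.041. With 3 arrays per group these values cannot decide whether the numbers pair the samples. The replicate block ended the calls of ACAT2, TAFA4, WNT4 and ZNF234, and rehybridisation as a covariate those of THRSP, ACSF2, ITGB3, KLF2, MAOA, TAFA4 and ZNF234. The causes of these shifts were not tested. Signal over background is not part of the tables used.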

Other observations

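Transcript clusters of U1, U6 and 5S RNA, near-identical copies whose probes can share targets, were more often lower than higher with TRA2A overexpression in CGG cells. The families were chosen after their values were seen. Of 110 distinct U1 clusters, the snRNA that recognises the start of introns, 41 were lower and 0 higher at an unadjusted p under 0.05, and 1 was called (TC0100015582.hg.1, at 15.90, 15.63 and 16.51 in overexpressing CGG cells and 17.43, 17.15 and 17.17 in CGG cells). Of 794 U6 clusters, the snRNA of the catalytic core, 170 were lower and 5 higher, and of 270 clusters of 5S ribosomal RNA 68 were lower and 3 higher. Other snRNA families leaned the same way. Of 41 U2 clusters 6 were lower and 1 higher, and of 55 U4 clusters 11 and 0. Of 23 U5 clusters 3 were lower and 0 higher, and of 28 U4atac and U6atac clusters 7 and 0. At that threshold 3.54% of all tested transcript clusters were lower and 5.46% higher. The mean of the 5S clusters was 5.83, 5.78 and 6.21 in overexpressing arrays 1 to 3, and 6.35, 6.22 and 6.21 in the CGG arrays. The mean of the U6 clusters was 5.62, 5.53 and 6.03, and 6.20, 5.89 and 5.97 in the same order, so that overexpressing array 3 lay among the CGG arrays. By contrast 462 clusters of 7SL RNA, of the signal recognition particle, had 20 lower and 11 higher and a median of -0.01, and 123 SNORD clusters had 5 lower and 7 higher and a median of 0.04. Against controls, without CGG, the U1 and 5S medians had the other sign, at 0.32 and 0.21, while the U6 median kept its sign at -0.03.

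HBA1 and HBA2, the erythroid globins and the only 2 erythroid markers tested, changed by -0.32 and -0.31 without passing.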
